A study of Mus musculus with 8 samples.

Results

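The replication-dependent histone genes of mouse sarcoma cells were measured by bulk RNA sequencing in cells carrying reagents against Mif, which encodes the secreted cytokine macrophage migration inhibitory factor, or control reagents. Members were all protein-coding genes whose symbol begins with Hist1h, Hist2h, Hist3h or Hist4h, or with the newer H1-, H2ac, H2bc, H3c or H4c. This gave 67 of 35498 genes, and 3 further symbols were not annotated as protein-coding and were left out. They comprised 6 genes for the linker histone H1, 18 for H2A, 18 for H2B, 12 for H3 and 13 for H4. The Hist1 cluster on chromosome 13 (21715763 to 23934851, mm10) held 54 of them, the Hist2 cluster on chromosome 3 (96219865 to 96270132) held 10, Hist3 on chromosome 11 held 2 and Hist4 on chromosome 6 held 1.

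The cells of every group were C57BL/6 mesenchymal stem cells lacking p53 and overexpressing Ccne1, first grown as tumours under the skin of recipient mice. After the reagents were added they were transplanted on polyurethane scaffolds into further recipients, and the tumours were digested and sorted on a fluorescent marker. The groups were shMif (a short hairpin RNA against Mif, labelled as knockdown), shSCR (a control hairpin), sgMif (a guide RNA against Mif with Cas9, labelled as knockout) and sgSCR (a control guide with Cas9), with 2 libraries each. The sample descriptions give Cas9 to the guide groups, while the series text names Cas9 for the hairpin groups too. The sources used here do not state the recipients' age, the number of animals behind a library, or whether the cells were clones. The p-values therefore reflect the spread of these libraries alone, which may be technical.

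As background, these genes supply most of the histone protein that packages newly made DNA, and their messages rise in S phase and are degraded at its end. Their messages normally end at a short stem-loop in place of a poly(A) tail. Stem-loop binding protein (Slbp) and the U7 small nuclear ribonucleoprotein direct the cut that makes this end, and cyclin E with Cdk2 activates the transcription co-activator Npat at the gene clusters. Some of the same genes also make longer, polyadenylated messages, which have been described in differentiated cells. The sources used here do not state whether these libraries were made by poly(A) selection or by ribosomal RNA depletion.

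Mif itself had 277 and 222 CPM (reads scaled to the library total) in shMif, 170 and 375 CPM in shSCR, 221 and 222 CPM in sgMif and 377 and 455 CPM in sgSCR. It did not pass the test in sgMif against sgSCR (log2 fold change -0.91 ± 0.32, SE, edgeR adjusted p = 0.215) or in shMif against shSCR (-0.13 ± 0.32, edgeR adjusted p = 0.925), so the transcript level did not separate the hairpin groups as labelled. Libraries held 19042235 to 51819308 reads. Mesenchymal markers summed to 17492 to 39042 CPM and those of male germ cells, another source of histone messages, to 0.0515 to 0.352 CPM, with none of those 6 genes passing the filter on low counts. Library shSCR 1 stood apart: it had the lowest share of mitochondrial reads, 1.63% against 2.12 to 2.65% in the other 7 libraries, and the highest share on transcripts annotated with a retained intron, 5.42% against 3.9 to 4.85%.

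The stem-loop was searched in the annotated transcript with most reads of each member, as 16 bases with complementary arms of 6 bases, the outer 2 of them GG and CC, around a loop of 4 bases. It was present in 43 of 67 members, while 55 of 21725 protein-coding genes, 0.253%, held it in any transcript. In 21 members the annotated transcript ended within 100 bases of the stem-loop (3 to 74 bases after it), and in 22 it ran on for 151 to 4884 bases. In the other 24 the letters were not in the model, and 17 of these 24 models have a length that is a multiple of 3, as coding sequences without an untranslated end do. The sequences below are those of members whose levels the results turn on, from GENCODE transcripts on GRCm38, written as DNA of the message strand, 5′ to 3′, with the stem-loop in capitals and up to 5 bases on either side. The first 4 belong to transcripts that end at the stem-loop and the last 3 to transcripts that run past it.
Hist1h2ap: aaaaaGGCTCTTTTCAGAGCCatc
Hist1h2ad: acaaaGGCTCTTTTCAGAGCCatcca
Hist2h2aa1: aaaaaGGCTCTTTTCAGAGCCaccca
Hist1h4m: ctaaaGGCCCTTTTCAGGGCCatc
Hist1h1c: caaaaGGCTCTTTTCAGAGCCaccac
Hist3h2a: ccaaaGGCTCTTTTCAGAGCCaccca
Hist1h4i: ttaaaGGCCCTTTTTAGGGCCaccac
The form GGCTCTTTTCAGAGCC was shared by 25 members of the H1, H2A, H2B and H3 classes, whichever way their annotated transcript ended. All 11 H4 members with a stem-loop had one of 3 other forms, of which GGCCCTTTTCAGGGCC was the commonest with 7 members.

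Promoters of 62 members were matched in RefSeq on GRCm38.p6, and the 250 bases before the start site were searched on both strands. CCAAT, the site read by the factor NF-Y, was in 82.3% of them and in 36.3% of 17492 protein-coding promoters. TATAAA was in 46.8% of member promoters and in 12.4% of all. The octamer ATTTGCAT, read by the Pou2f1 protein, was in 21% of member promoters and 1.61% of all, and all 13 of its carriers were H2A or H2B genes. CCAAT was in every H1, H2A and H2B promoter searched (6, 18 and 16), in 8 of 10 H3 promoters and in 3 of 12 H4 promoters. None of these motifs contains another, and a match is only a run of letters. Promoters of some neighbouring H2A and H2B genes on opposite strands overlap, as those of Hist1h2aa and Hist1h2ba do. The same site can then be counted for both genes, so carriers are not all separate sites. Printed here are the 180 bases before the start site of 2 genes, with CCAAT on either strand in capitals. The first is an abundant H2A gene, whose annotated transcript ends at the stem-loop. The other is the H1 gene called in shSCR against sgSCR.
Hist1h2ad (chr13:23574201-23574380, plus strand): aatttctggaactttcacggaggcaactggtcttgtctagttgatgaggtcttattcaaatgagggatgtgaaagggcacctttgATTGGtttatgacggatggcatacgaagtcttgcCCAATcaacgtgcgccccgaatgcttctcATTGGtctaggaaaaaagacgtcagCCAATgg
Hist1h1c (chr13:23738627-23738806, plus strand): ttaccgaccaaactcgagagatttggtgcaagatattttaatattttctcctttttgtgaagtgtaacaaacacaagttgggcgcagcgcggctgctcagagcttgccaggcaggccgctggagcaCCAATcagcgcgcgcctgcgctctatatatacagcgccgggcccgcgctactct

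The histone members were a small part of each library. H2A genes held 17.9% of member reads in shSCR 1, where H1 genes held 43.1%, and 47.5 to 74.2% in the other 7 libraries. All 67 members together took 0.00915% of all reads in shSCR 1 (95% Wilson interval 0.00885 to 0.00945%). Among the other libraries their share lay between 0.0241% (0.0236 to 0.0246%) in sgSCR 1 and 0.0319% (0.0312 to 0.0327%) in sgMif 1. These intervals cover counting error only. In bulk samples these shares cannot tell apart fewer cells in S phase, less histone RNA per cell and a technical difference between libraries. Summed over all 67 members, TPM (a level per transcript length) was 687 and 582 in shMif, 159 and 540 in shSCR, 779 and 680 in sgMif and 590 and 623 in sgSCR. All libraries but shSCR 1 thus lay between 540 and 779 TPM.

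H2A genes, whose protein pairs with H2B at the outer faces of the nucleosome, summed to 414 and 346 TPM in shMif, 40.4 and 294 TPM in shSCR, 556 and 524 TPM in sgMif and 402 and 473 TPM in sgSCR. H4 genes, for the most conserved core histone, summed to 98.0 and 97.0 TPM in shMif, 27.9 and 91.1 TPM in shSCR, 105 and 72.4 TPM in sgMif and 91.7 and 75.8 TPM in sgSCR. H2B genes summed to 34.9 to 88.8 TPM and H3 genes to 8.48 to 55.7 TPM over the 8 libraries. H1 genes, for the linker histone that binds where DNA enters and leaves the nucleosome, had another order: 30.1 and 28.6 TPM in shMif, 34.1 and 43.1 TPM in shSCR, 19.7 and 15.3 TPM in sgMif and 18.8 and 17.7 TPM in sgSCR. H1 was the 1 class of the 5 whose hairpin libraries all lay above its guide libraries. That order rests on Hist1h1c, at 21.5 to 37.2 TPM in the hairpin libraries and 12.1 to 15.5 TPM in the guide libraries. Every other H1 gene overlapped between hairpin and guide libraries. Library shSCR 1 had the lowest sum in H2A, H3 and H4 but not in H1 or H2B.

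**Figure D1:**
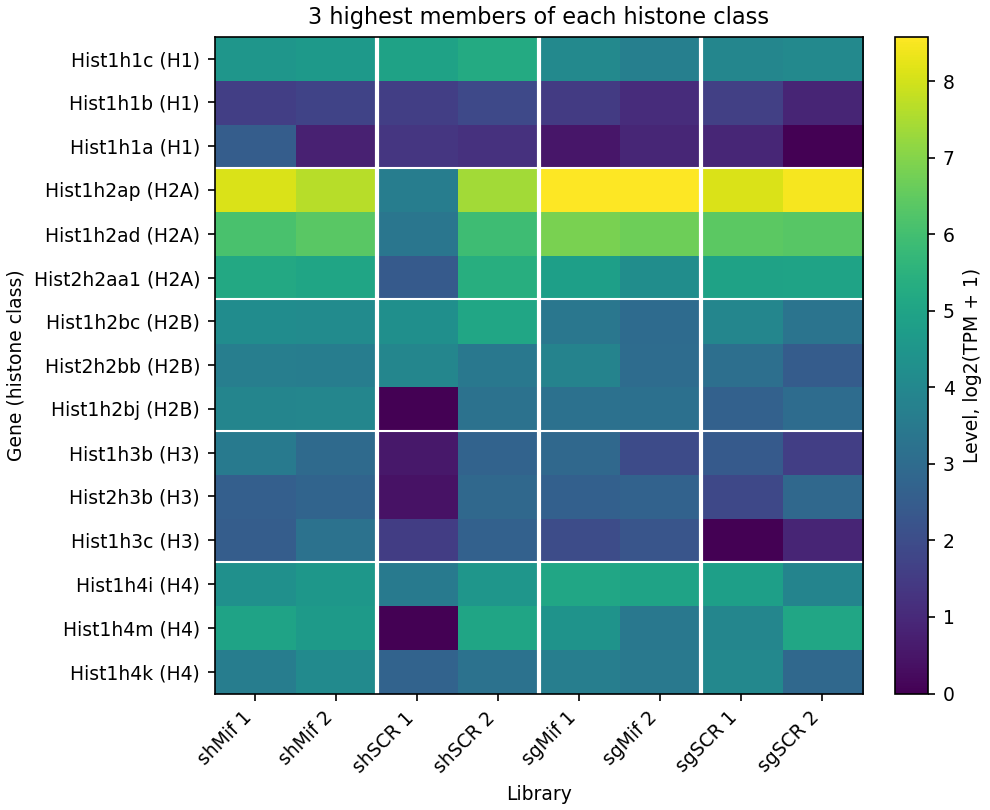
Level of the 3 members with the highest mean TPM in each histone class, as log2(TPM + 1), with genes down the page and the 8 libraries across. Hist1h2ap and Hist1h2ad are the brightest in all libraries but shSCR 1, where Hist1h1c is the highest.

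Hist1h2ap, an H2A gene (chr13:21833026-21833507, minus strand), was the most abundant member, with a mean of 254 TPM over the 8 libraries. Its normalised level was 101 and 75.8 CPM in shMif, 2.39 and 63.3 CPM in shSCR, 140 and 138 CPM in sgMif and 86.7 and 128 CPM in sgSCR. Hist1h2ad, another H2A gene (chr13:23574381-23574952, plus strand), came next with a mean of 75.0 TPM. It had 31.7 and 38.6 CPM in shMif, 2.28 and 28.1 CPM in shSCR, 52.7 and 45.5 CPM in sgMif and 34.1 and 36.3 CPM in sgSCR. In both genes shSCR 1 lay far below every other library, and both sgMif libraries lay above the other 6. Together they held 5.09% of member reads in shSCR 1 (95% Wilson interval 4.41 to 5.86%) and from 33.7% (32.9 to 34.5%) in shSCR 2 to 66.3% (65.4 to 67.1%) in sgMif 2.

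Below these, mean levels were 27.2 TPM for Hist2h2aa1, 22.3 TPM for the H4 gene Hist1h4i, 21.2 TPM for Hist1h1c, 20.4 TPM for Hist1h4m and 15.6 TPM for the H2B gene Hist1h2bc. The ranges of these 5 over the libraries overlapped, so their order is not resolved. Hist2h2bb and Hist1h2bj were the next H2B genes, at 10 and 8.16 TPM, and Hist1h4k the next H4 gene, at 10.6 TPM. The highest H3 genes were Hist1h3b at 4.89 TPM, Hist2h3b at 4.67 TPM and Hist1h3c at 3.51 TPM, and after Hist1h1c the highest H1 genes were Hist1h1b at 1.87 TPM and Hist1h1a at 1.33 TPM. At the other end, 6 to 23 members had no reads in a library and 34 to 57 had at least 10.

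Near-identical copies limit how far single members can be told apart. Of all 31-base stretches of the Hist1h2ap transcript, 93.4% also occur in transcripts of another gene, against 68.3% for Hist1h2ad, 33.7% for Hist1h2bc, 32.1% for Hist3h2a and 11.4% for Hist1h1c. More than 90% was shared in 10 members and more than 50% in 37, so reads of these genes could be split between copies in ways that the tables do not show, and Hist2h2aa2, whose sequence is wholly shared, was listed at 0 reads throughout. Olfactory receptor genes, which mesenchymal cells are not known to use and whose coding parts lack introns like those of the histone genes, gave a level to set beside the low members. The 95th percentile of 1135 such genes was 0.401 to 2.91 TPM per library, and 21 to 54 members lay above it. It was exceeded in all 8 libraries by 13 members and in the 7 libraries other than shSCR 1 by 20, and 7 members exceeded it in none.

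Members whose annotated transcript ends at the stem-loop were nearly lost from library shSCR 1. Their summed level was 178 and 156 CPM in shMif, 8.97 and 136 CPM in shSCR, 226 and 206 CPM in sgMif and 146 and 193 CPM in sgSCR. Without Hist1h2ap and Hist1h2ad the sum was still 4.31 CPM in shSCR 1 and 22.6 to 45.6 CPM in the other 7 libraries. Members whose transcript runs past the stem-loop summed to 78.2 and 77.1 CPM in shMif, 59.6 and 94.9 CPM in shSCR, 67.0 and 52.4 CPM in sgMif and 58.1 and 52.7 CPM in sgSCR, and here shSCR 1 lay within the range of the others. That place rests on Hist1h1c: without it, the same sum was 23.7 CPM in shSCR 1 and 33.1 to 50.8 CPM in the other 7 libraries. Those without stem-loop letters in the model summed to 34.9 and 31.3 CPM in shMif, 22.7 and 40.5 CPM in shSCR, 24.6 and 18.3 CPM in sgMif and 23.2 and 15.0 CPM in sgSCR. Library shSCR 1 had 38542409 reads, more than 5 of the other 7 libraries.

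**Figure D2:**
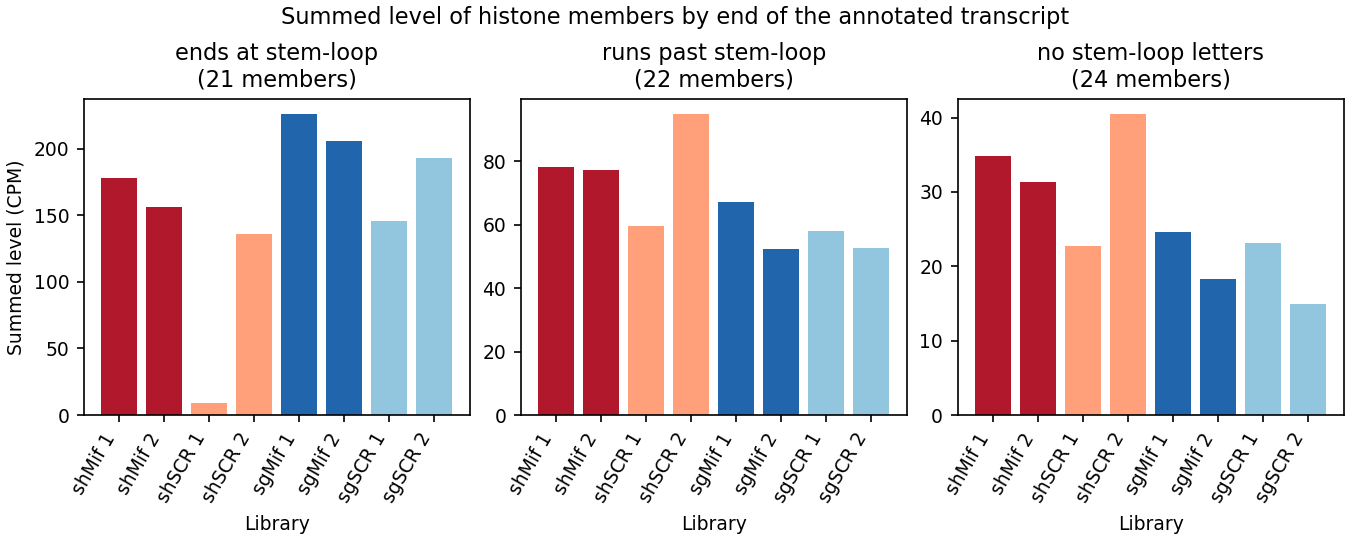
Summed normalised level (CPM) of the histone members in each library, for 21 members whose annotated transcript ends at the stem-loop, 22 whose transcript runs past it and 24 without its letters. Bars are single libraries on separate axes from 0, and the bar of shSCR 1 is 8.97 CPM in the first panel, where the next lowest is 136 CPM.

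Of the 60 members tested, 38 were more than 2-fold lower in shSCR 1 than in shSCR 2 (63.3%, against 7.38% of all genes tested) and 22 more than 4-fold lower (36.7%, against 1.84%). The median log2 difference was -1.52 for members and 0.00 for all genes. The corresponding medians of library 1 minus library 2 were -0.05 to 0.43 for members in the other 3 groups. By transcript end, the median was -3.34 for the 20 tested members that end at the stem-loop, of which 19 were lower and 13 more than 4-fold lower. It was -1.09 for the 20 that run past it, with 5 more than 4-fold lower, and -0.72 for the 20 without its letters, with 4 more than 4-fold lower. Counted against all other libraries, shSCR 1 was below each of them in 12 of 20, 7 of 20 and 4 of 20 members of these sets (21.7% of all genes tested). With 1 library of this kind there is no test.

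Single genes show the range. Hist1h2ap had 92 reads in shSCR 1 and 3136 in shSCR 2, a 26.5-fold lower CPM, and Hist1h2ad had 88 and 1392 reads, 12.3-fold lower. Hist2h2aa1, an H2A gene of the Hist2 cluster, had 16.5 and 15.1 CPM in shMif, 1.19 and 19.4 CPM in shSCR, 12.9 and 8.0 CPM in sgMif and 12.4 and 13.9 CPM in sgSCR. The H4 gene Hist1h4m had 5.41 and 4.52 CPM in shMif, 0 and 5.91 CPM in shSCR, 3.56 and 1.74 CPM in sgMif and 2.34 and 5.78 CPM in sgSCR. Hist1h1c, whose transcript runs 840 bases past the stem-loop, differed less, with 35.9 CPM in shSCR 1 and 49.8 CPM in shSCR 2. Hist3h2a had 8.17 and 9.59 CPM. Hist1h1c thereby made up 39.3% of member reads in shSCR 1 (95% Wilson interval 37.7 to 40.9%) and 18.4% in shSCR 2 (17.7 to 19.0%). It made up 5.61 to 12.0% in the libraries of the other groups. Not all transcripts that run past the stem-loop held up in this way. Of the 20 tested, 18 were lower in shSCR 1 than in shSCR 2, among them Hist2h3c2 (12.3-fold in CPM) and Hist1h4i (2.33-fold).

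GC content moved with the same library. Among genes that are no members, the median log2 difference of shSCR 1 minus shSCR 2 was 0.37 for transcripts with up to 40% GC, -0.33 at 55 to 60%, -0.88 at 60 to 65% and -1.87 above 65%. In the other groups these medians stayed between -0.30 and 0.28. The tested members had a median GC content of 57.8%, against 49.8% over all genes tested, and 56 of 60 had transcripts of 1 exon. At 55 to 60% GC the 9 members that end at the stem-loop had a median of -2.50, and at 60 to 65% the 10 such members had -3.52. After the median of other genes of like GC content was subtracted, the median was -1.13 over all members and -2.24 over those that end at the stem-loop, with 15 of these 20 (75.0%) still more than 2-fold lower, against 5.26% of all genes with a GC value. For members that run past the stem-loop the remaining median was -1.21, and for those without its letters it was 0.23. Olfactory receptor genes summed to 1514 CPM in shSCR 1 and 523 CPM in shSCR 2, and their part, like that of mitochondrial and retained-intron reads, was not tested.

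**Figure D3:**
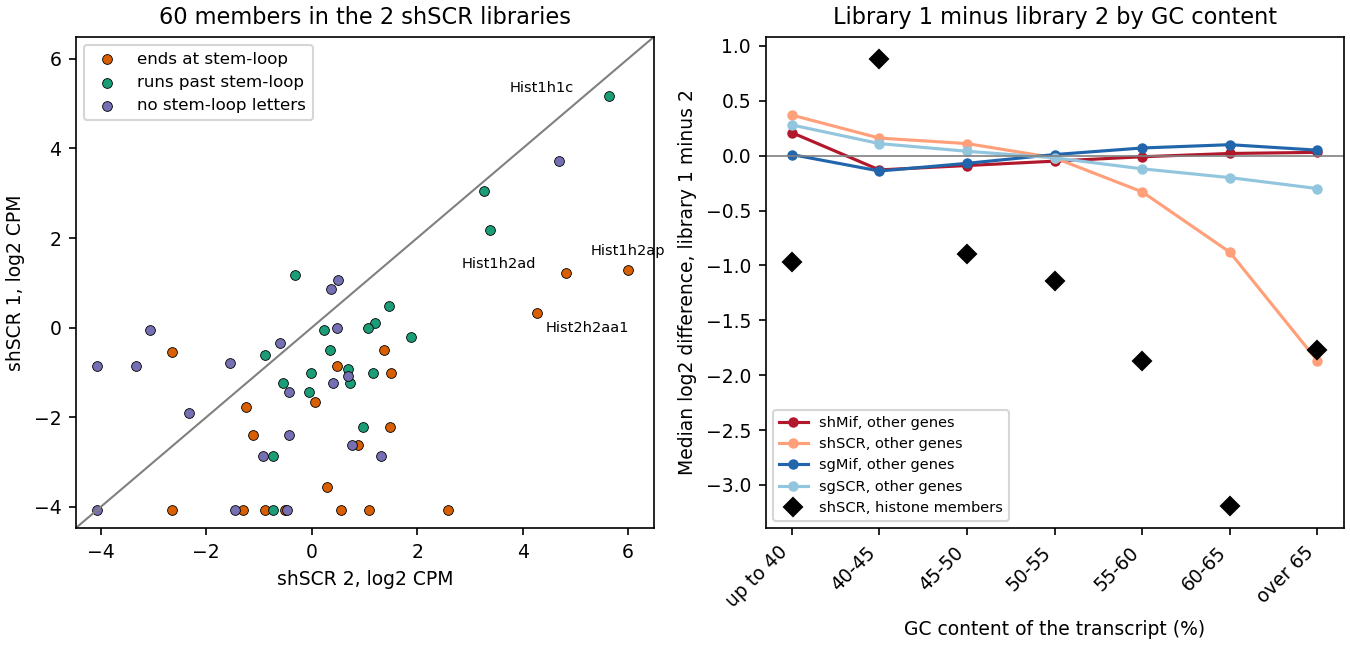
Left, log2 CPM of the 60 tested members in shSCR 1 against shSCR 2, coloured by the end of the annotated transcript, with the line of equality. Right, median log2 difference of library 1 minus library 2 by GC content of the transcript (%), for other genes in each group (lines) and for members in shSCR (diamonds), which reach -3.19 at 60 to 65% where other genes reach -0.88.

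Genes that work with histones were set beside them. Between the 2 shSCR libraries the median log2 difference (shSCR 1 minus shSCR 2) was -0.01 over 37 tested genes of S phase and DNA replication, with 1 more than 2-fold lower. It was -0.04 over 15 genes of histone gene transcription, -0.06 over 28 of histone message end processing and decay, and 0.00 over 27 histone chaperones and modifiers. Of 11 replication-independent histone variants, whose genes mostly make polyadenylated messages, 4 were more than 2-fold lower, with a median of -0.38. Slbp, the stem-loop binding protein, had 44.3 and 49.9 CPM in shMif, 45.8 and 45.2 CPM in shSCR, 53.6 and 70.2 CPM in sgMif and 52.8 and 53.8 CPM in sgSCR. H2afx, the DNA damage variant H2AX, is a gene outside the family whose transcript also holds the stem-loop letters. It had 39.5 and 43.2 CPM in shMif, 13.7 and 41.2 CPM in shSCR, 95.7 and 118 CPM in sgMif and 73.8 and 68.2 CPM in sgSCR, with shSCR 1 again the lowest, and 62.3% GC.

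The comparison of sgMif with sgSCR asks whether histone messages differed in the guide libraries labelled as knockout, whose Mif transcript did not pass the test. No member passed the test in either direction (edgeR quasi-likelihood test, Benjamini-Hochberg adjustment over 16309 genes, threshold 0.05), where 0.368% of all genes tested were called higher and 0.619% lower. At an unadjusted threshold of 0.05, 3 of 60 members passed, against 16.6% of all genes tested, and the lowest adjusted p was 0.131. DESeq2 called 1 member higher, Hist1h2an, and none lower, against 3.21% of all genes higher and 3.37% lower. The median log2 fold change was 0.38 over members and -0.01 over all genes tested, with 39 of 60 members and 8059 of 16309 genes above 0. In 18 members both sgMif libraries lay above both sgSCR libraries, and in 3 below, where 27.1% and 24.2% of all genes tested did so. By transcript end the medians were 0.40 for members that end at the stem-loop, -0.05 for those that run past it and 0.49 for those without its letters.

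Hist1h2ap averaged 139 ± 1.70 CPM in sgMif and 107 ± 29.0 CPM in sgSCR (SD, n = 2 each), a log2 fold change of 0.38 ± 1.00 (SE, edgeR adjusted p = 0.883). Its SE carries the spread of the shSCR libraries, since the groups share 1 estimate; without shSCR 1 the value was 0.38 ± 0.21 (edgeR adjusted p = 0.372). For Hist1h2ad the value was 0.48 ± 0.81 (edgeR adjusted p = 0.800), and without shSCR 1 it was 0.49 ± 0.16 (edgeR adjusted p = 0.159). Both genes were higher in both sgMif libraries, and neither passed.

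The members with the smallest p in each class were mostly at a few reads. Hist1h2an, an H2A gene, had 0.548 and 0.451 CPM in sgMif and no reads in sgSCR, at least 4.44-fold higher against a floor of 3 counts in each sgSCR library (edgeR adjusted p = 0.131). Hist1h4n was likewise at least 2.22-fold higher (edgeR adjusted p = 0.202). Hist1h2ab had no reads in sgMif 1 or in sgSCR and 0.586 CPM in sgMif 2, so its groups overlapped. Its sgMif mean was 2.61-fold above that floor (edgeR adjusted p = 0.327). These values take the listed reads as they stand. Other genes share 89.0%, 87.5% and 63.0% of the 31-base stretches of Hist1h2an, Hist1h4n and Hist1h2ab, so reads may be listed under copies. The H3 genes Hist1h3c and Hist1h3f had log2 fold changes of 3.12 ± 1.32 and 1.93 ± 1.04 (SE, edgeR adjusted p = 0.289 and 0.397). Hist1h4j, Hist1h2bn and Hist1h2bp, at 0 to 0.685 CPM in these 4 libraries, had adjusted p of 0.327, 0.452 and 0.452. The H1 genes Hist1h1d and Hist1h1e had log2 fold changes of -0.50 ± 0.53 and 0.37 ± 0.73 (adjusted p = 0.674 and 0.835).

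Of 37 genes of S phase and DNA replication 7 were higher in sgMif and none lower. Among all genes tested 0.368% were called higher and 0.619% lower. The median log2 fold change of the 37 was 0.73, against -0.01 over all genes tested. Mcm6, a subunit of the replicative helicase, had 252 and 260 CPM in sgMif and 136 and 127 CPM in sgSCR (log2 fold change 0.96 ± 0.12, edgeR adjusted p = 0.0288). Uhrf1, which binds replicating DNA for maintenance methylation, had 199 and 195 CPM in sgMif and 114 and 113 CPM in sgSCR (0.80 ± 0.12, adjusted p = 0.0333). Mcm4 (0.82 ± 0.14, adjusted p = 0.0404) and Mcm3 (0.90 ± 0.15, adjusted p = 0.0413) rose as well. Of 27 histone chaperones and modifiers 1 rose, Chaf1a, a subunit of the assembly factor CAF-1 that places new histones behind the fork, at 105 and 103 CPM in sgMif and 54.8 and 57.0 CPM in sgSCR (0.89 ± 0.14, adjusted p = 0.0362). None of 15 genes of histone transcription, 28 of message end processing or 11 variants passed. Npat, the co-activator at histone clusters, had 28.5 and 26.4 CPM in sgMif and 18.9 and 19.7 CPM in sgSCR (0.51 ± 0.19, adjusted p = 0.229). Macrophage markers summed to 132 and 105 CPM in sgMif and 351 and 176 CPM in sgSCR, with 11 of 12 markers lower in the fit and 1 (Mrc1) called; their part in these values was not tested.

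The comparison of shMif with shSCR asks the same of the hairpin libraries labelled as knockdown, whose Mif level did not set them apart, and its values depend on which shSCR library is used. No member passed edgeR's test in either direction, with 1 of 60 past an unadjusted 0.05, against 9.26% of all genes tested, and a lowest adjusted p of 0.520. DESeq2 called no member, and 0.974% of all genes higher and 0.411% lower. Of all genes tested 0.0184% were called higher and 0% lower. The median log2 fold change was 0.76 over members and 0.03 over all genes, with 51 of 60 members and 8639 of 16309 genes above 0. The members' median was 0.28 without shSCR 1 and 2.21 without shSCR 2. Both shMif libraries lay above both shSCR libraries in 17 members and below in 2, where 19.4% and 22.3% of all genes did. The medians were 0.97 for members that end at the stem-loop, 0.53 for those that run past it and 0.76 for those without its letters.

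**Figure D4:**
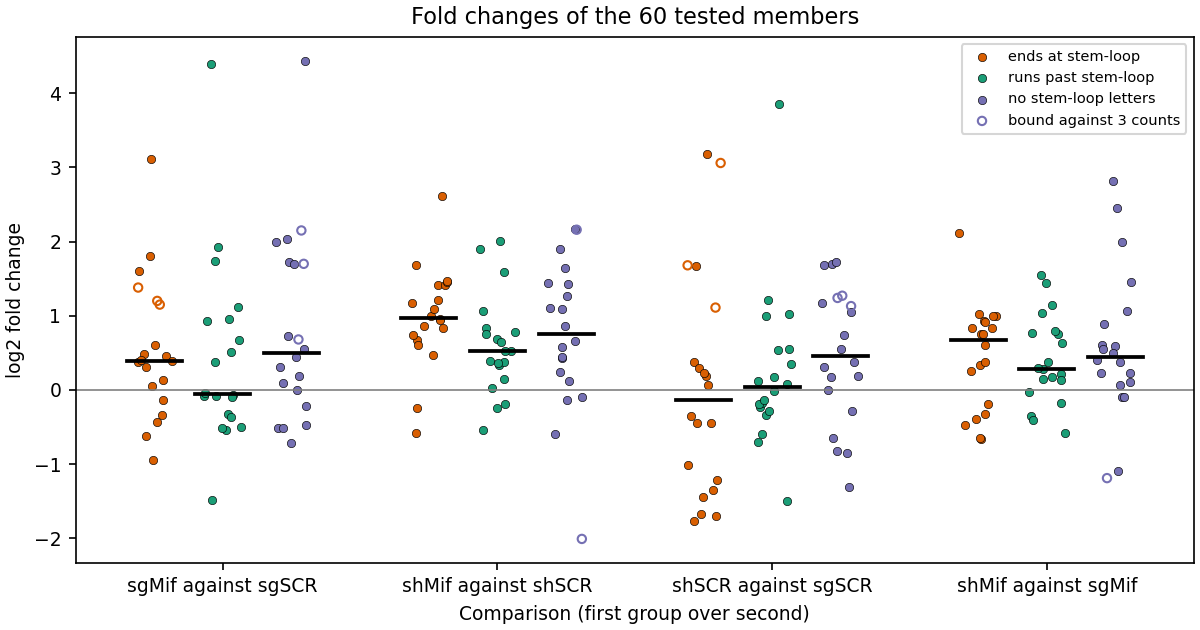
log2 fold changes of the 60 tested members in 4 comparisons, each the first group over the second, by the end of the annotated transcript. Points are genes and bars are medians. Open circles are group means set against 3 counts per library in a group without reads. The highest median is 0.97, for members that end at the stem-loop in shMif against shSCR.

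Hist1h2ap averaged 88.3 ± 17.6 CPM in shMif and 32.8 ± 43.1 CPM in shSCR (SD, n = 2 each), a log2 fold change of 1.42 ± 1.02 (SE, edgeR adjusted p = 0.679). Without shSCR 1 it was 0.47 ± 0.26 (adjusted p = 1.00), and without shSCR 2 it was 5.21 ± 0.35 (adjusted p = 0.000868), so that the call depends on which control library is kept. Without shSCR 2, 7 members were called higher, all of which end at the stem-loop: Hist1h2ap, Hist1h2ad, Hist2h2aa1, Hist1h3b, Hist1h2bj, Hist1h2bk and Hist1h4m. That fit called 3.24% of all genes higher. Hist1h1c went the other way, with 27.3 and 31.7 CPM in shMif and 35.9 and 49.8 CPM in shSCR (-0.54 ± 0.21, adjusted p = 0.520). Of the other members with the smallest p in their class, Hist1h3e had 3.55 and 1.62 CPM in shMif and 0.441 and 0.928 CPM in shSCR, and Hist1h4a had 0.978 and 1.59 CPM in shMif and 0.130 and 0.686 CPM in shSCR (edgeR adjusted p = 0.551 and 0.596). Hist1h2ah had reads in 1 shMif library and none in shSCR, and Hist1h2br had none in shMif and 0.908 and 0.0605 CPM in shSCR (adjusted p = 0.596 and 0.554).

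The difference between the effects of guide and hairpin was tested directly. No member passed edgeR's test (3 of 60 past an unadjusted 0.05, against 15.8% of all genes, lowest adjusted p = 0.272). DESeq2 called no member, and 1.88% of all genes higher and 2.66% lower. By edgeR 0.00613% of all genes tested were called higher and 0.0858% lower. The median difference was -0.36 over members and -0.04 over all genes, and it was 0.03 without shSCR 1. For Hist1h2ap the difference was -1.05 ± 1.41 (SE, edgeR adjusted p = 0.735). In the hairpin pair none of the 37 replication genes passed, with a median of 0.06, and none of the 15, 28, 27 and 11 genes of the other histone lists passed.

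Between the control groups of the hairpin and guide systems, edgeR called 1 member, Hist1h1c. This H1 gene (chr13:23738808-23740367, plus strand) encodes a linker histone common in somatic cells. It had 27.3 and 31.7 CPM in shMif, 35.9 and 49.8 CPM in shSCR, 19.4 and 15.5 CPM in sgMif and 17.3 and 19.6 CPM in sgSCR, so that all 4 hairpin libraries lay above all 4 guide libraries. Hist1h1c rose in shSCR against sgSCR, at 42.9 ± 9.89 CPM in shSCR and 18.5 ± 1.64 CPM in sgSCR (SD, n = 2 each), a log2 fold change of 1.21 ± 0.21 (SE, edgeR adjusted p = 0.0266). It was the 1 of 60 members called higher, with none lower. Of all genes tested 2.23% were called higher and 1.79% lower, so the count for members is near that share. How many genes had all hairpin libraries above all guide libraries is not given here. The value was 1.44 ± 0.21 without shSCR 1 (adjusted p = 0.0273) and 0.96 ± 0.22 without shSCR 2 (adjusted p = 0.0329). The call was lost without sgSCR 1 (adjusted p = 0.136), without sgSCR 2 (0.129), without shMif 2 (0.0525) and when replicate number was added as a block (0.104). In shMif against sgMif, a comparison added after the data were seen, Hist1h1c had a log2 fold change of 0.76 ± 0.21 that did not pass (edgeR adjusted p = 0.123), and DESeq2 called it.

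**Figure D5:**
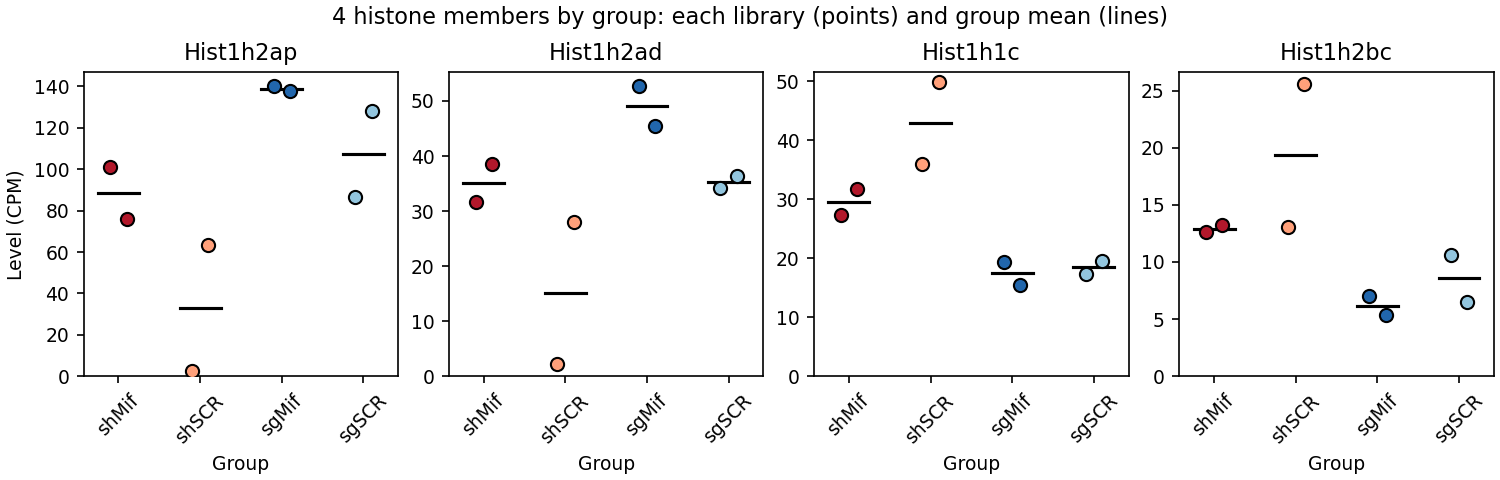
Normalised level (CPM) of Hist1h2ap, Hist1h2ad, Hist1h1c and Hist1h2bc in each library (points) with the group mean (lines), on axes from 0. Hist1h1c has its 4 hairpin libraries at 27.3 to 49.8 CPM, all above its 4 guide libraries at 15.5 to 19.6 CPM, while Hist1h2ap is highest in sgMif.

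Hist1h2bc, an H2B gene (chr13:23684199-23692908, plus strand), had a like order without passing. It had 12.6 and 13.2 CPM in shMif, 13.1 and 25.6 CPM in shSCR, 6.98 and 5.39 CPM in sgMif and 10.6 and 6.53 CPM in sgSCR. All hairpin libraries lay above all guide libraries, with a log2 fold change of 1.17 ± 0.36 in shSCR against sgSCR (edgeR adjusted p = 0.108) and 1.06 ± 0.37 in shMif against sgMif (adjusted p = 0.205). Hist1h2ap and Hist1h2ad had the opposite sign, -1.70 ± 1.03 and -1.21 ± 0.82 in shSCR against sgSCR (adjusted p = 0.361 and 0.417), and -0.75 ± 0.26 and -0.31 ± 0.19 without shSCR 1 (adjusted p = 0.229 and 0.476). Hist1h2an and Hist1h4n had no reads listed in sgSCR. In shSCR Hist1h2an had 0.0778 and 0.464 CPM, and Hist1h4n had 0.622 and 0.101 CPM. Their shSCR means were 2.41-fold and 3.21-fold above the floor of 3 counts in sgSCR, 0.113 CPM (edgeR adjusted p = 0.114 and 0.111). The lower shSCR library of each gene lay below that floor. Hist1h3c had 0.648 and 2.52 CPM in shSCR and 0 and 0.399 CPM in sgSCR (adjusted p = 0.199).

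Over all members the median was 0.17 in shSCR against sgSCR (all genes -0.04), with 7 of 60 past an unadjusted 0.05, against 22.9% of all genes tested. The members' median was 0.56 without shSCR 1 and -0.97 without shSCR 2. Without shSCR 2, 9 members were called lower, as were 5.96% of all genes. DESeq2 called 4 members higher and none lower, against 7.08% of all genes higher and 5.87% lower. By class the median was 0.74 for H1, 0.19 for H2A, 0.19 for H2B, 0.08 for H3 and -0.44 for H4. Both shSCR libraries lay above both sgSCR libraries in 11 members and below in 5, where 28.4% and 26.3% of all genes tested did. In shMif against sgMif no member passed (3 of 60 past an unadjusted 0.05, against 15.6% of all genes), where 1.18% of all genes tested were called higher and 0.834% lower. DESeq2 called 1 member higher and none lower, against 4.45% of all genes higher and 3.07% lower. There the median was 0.39 (all genes 0.00), and 17 members were higher and 3 lower without overlap, where 23% and 24.7% of all genes were. These comparisons and the Mif comparisons share libraries.

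Among the partner genes, H1f0, the replication-independent linker histone of resting and differentiated cells, also rose in shSCR against sgSCR. It had 312 and 404 CPM in shSCR and 173 and 174 CPM in sgSCR (log2 fold change 1.05 ± 0.17, SE, edgeR adjusted p = 0.0201), the 1 called of 11 variants. In end processing 2 of 28 genes rose: Cpsf2, a subunit of the cleavage complex shared with polyadenylation, had 85.5 and 73.2 CPM in shSCR and 45.9 and 45.8 CPM in sgSCR (0.79 ± 0.15, adjusted p = 0.0333). Ncbp1, of the nuclear cap-binding complex, had 140 and 124 CPM in shSCR and 79.2 and 73.4 CPM in sgSCR (0.79 ± 0.16, adjusted p = 0.0371). Of 37 replication genes 1 rose, Mcm6, with 216 and 232 CPM in shSCR and 136 and 127 CPM in sgSCR (0.77 ± 0.12, adjusted p = 0.0206). Of all genes tested 2.23% were called higher in shSCR against sgSCR, and 1 of 37 is near that share. In shMif against sgMif 5 of the 37 fell and none rose, where 0.834% of all genes tested were called lower and 1.18% higher. Uhrf1 had 108 and 119 CPM in shMif and 199 and 195 CPM in sgMif (-0.80 ± 0.12, adjusted p = 0.0256). Rrm2, a subunit of ribonucleotide reductase, had 50.7 and 63.1 CPM in shMif and 111 and 111 CPM in sgMif (-0.96 ± 0.16, adjusted p = 0.0317). Macrophage markers summed to 402 and 211 CPM in shMif and 132 and 105 CPM in sgMif, with 12 of 12 above 0 in the fit (median log2 fold change 1.42) and 1, Laptm5, called, and their part in these values was not tested. None of the 15 transcription genes passed in any comparison.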

How the data were processed

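Bulk RNA sequencing gave 8 libraries of sorted sarcoma cells, 2 in each of 4 groups taken from the sample titles. Per the submitters' processing notes, reads were handled with Trimmomatic and Salmon on build mm10, and no versions were stated. Per the file headers, the deposited tables hold an estimated count and a TPM value for each of 116546 transcripts, and effective lengths. Of these, 115977 were matched to GENCODE M21 genes, and the 569 others, with 0.101 to 0.205% of reads, were left out.

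Estimated counts were summed per gene and rounded. Genes were kept by filterByExpr (minimum count 10, minimum total 15), leaving 16309 genes and 60 of 67 members. They were scaled by TMM and tested with edgeR 4.0.16's quasi-likelihood test in R 4.3.3, in 1 model of all 4 groups (residual degrees of freedom: 4) and Benjamini-Hochberg adjustment at 0.05. Log2 CPM values used 2 prior counts. CPM are computed here with the TMM factors, except those of olfactory receptor genes, which use the plain total of matched reads. The authors' TPM were summed per gene. Totals of 19042235 to 51819308 reads set the precision: 3 counts in each library correspond to means of 0.120 CPM in shMif, 0.0692 in shSCR, 0.102 in sgMif and 0.113 in sgSCR.

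Members, gene lists and tests were chosen with earlier results of these data known. The members named are those past the threshold, the 3 with the highest mean TPM per class, and those with the smallest p per class: 2 for sgMif against sgSCR and 1 each for shMif against shSCR and shSCR against sgSCR. From other lists up to 4 genes past the threshold are named by smallest p. Slbp, Npat, H2afx, Hist3h2a and any gene named for its library values were chosen after their values were seen. The lists held 165 symbols, 4 of which were not matched. Stable RNAs without poly(A) tails were not analysed here. GC content is that of each gene's transcript with most reads. Alternatives were relative log expression size factors, DESeq2 1.42.0, no filter, length-scaled counts, protein-coding transcripts, a replicate block, each system alone, the 5 libraries with over 1000 CPM on olfactory receptor genes, and leaving out each library. A GC correction and shMif against sgMif were chosen after seeing the data. The fits were tested on simulated data with known fold changes in genes of high counts only, so most members, at few reads, were not covered. Tables were handled with Python 3.11.15 and pandas 2.3.3.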

Additional observations from a re-analysis of the deposited data

How the results depend on the processing

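Counts of members called moved with the shSCR libraries and the filter. For most of these fits the share of all genes called is not given here. Their counts describe how the settings moved the calls and are no result about the members. Leaving out each library in turn gave 0 to 7 higher in shMif against shSCR, 0 to 5 lower for the difference of effects, and 0 to 1 higher and 0 to 9 lower in shSCR against sgSCR, with the highest counts without shSCR 2. Medians ranged from 0.28 to 2.21 in shMif against shSCR, -1.62 to 0.03 for the difference and -0.97 to 0.59 in shSCR against sgSCR; where this left 1 library in a group, its spread was taken from the remaining groups. The 5 libraries with over 1000 CPM on olfactory receptor genes, which hold shSCR 1 and not shSCR 2, gave 6 higher and a median of 2.01 in shMif against shSCR, 5 lower and -1.39 for the difference, and 7 lower and -0.94 in shSCR against sgSCR. DESeq2 called 1 higher in sgMif against sgSCR, 4 higher in shSCR against sgSCR and 1 higher in shMif against sgMif. With no filter, 3 were higher in sgMif against sgSCR, 2 higher in shMif against shSCR, 1 higher and 1 lower for the difference, 5 higher and 2 lower in shSCR against sgSCR, and 2 higher and 1 lower in shMif against sgMif; this fit called Hist1h2ap in shMif against shSCR although its 2 shSCR libraries differ 26.5-fold. The GC correction gave 2 higher in shSCR against sgSCR (Hist1h1c and Hist1h2an), where Hist1h1c was at 1.29 (edgeR adjusted p = 0.0105). Ratios of mean summed TPM gave -0.79 in shSCR against sgSCR and -0.20 in shMif against sgMif, on the log2 scale. Hist1h1e in sgMif against sgSCR ranged from -0.09 (without sgMif 1, a reversed sign) to 0.75 (without sgMif 2). The causes were not tested.

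The labels do not state that equal replicate numbers share a source. Deviations of same-numbered libraries correlated at 0.182 for the guide groups and 0.263 for the hairpin groups, with 2 pairs each, too few to settle whether numbers pair the libraries. Olfactory receptor CPM was higher in library 1 than in library 2 of every group (2362 and 553 in shMif, 1514 and 523 in shSCR, 1330 and 380 in sgMif, 2544 and 1418 in sgSCR), as were the B and T cell and epithelial marker sums. With the replicate block, 0 members were higher in shSCR against sgSCR and the median was -0.50; with block and GC correction together, Hist1h1c was called (log2 fold change 1.11, edgeR adjusted p = 0.0428). Few reads limit most members: 6 to 23 had none in a library.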

Other observations

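Histone genes of the Hist1 and Hist2 clusters often stand head to head, and 13 such divergent pairs of members were found. Between the annotated starts of their GENCODE gene models lay 175 to 659 bases. These starts can differ from the RefSeq start sites used for the promoters. In some pairs the 2 genes differed widely in level. Hist1h2ap had a median of 93.7 CPM over the 8 libraries, against 0.130 CPM for its neighbour Hist1h2br 235 bases away. Hist1h2ad had a median of 35.2 CPM, against 0.118 CPM for Hist1h2bf 184 bases away, across the promoter sequence printed above. Hist1h2bc had 11.6 CPM and Hist1h2ac, 250 bases away, 1.20 CPM. Pairs with closer medians were Hist1h2bg at 1.69 CPM with Hist1h2ae at 1.44 CPM, and Hist1h3f at 0.633 CPM with Hist1h2bh at 0.581 CPM. Reads of near-identical copies enter these levels, since 99.8% of the 31-base stretches of Hist1h2br occur in another gene.

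Outside the family, 11 genes held the stem-loop letters in a transcript, and 9 of them were tested. Between the 2 shSCR libraries H2afx (log2 difference of shSCR 1 minus shSCR 2, -1.59, 62.3% GC) and Nectin2 (-1.60, 61.6% GC) were lower in shSCR 1. The others were Nova2 (-0.70, 56.3% GC), Syncrip (-0.01, 43.6% GC), Ttc14 (-0.01, 38.2% GC), Galnt1 (0.15, 41.2% GC), Cyp26b1 (0.27, 56.7% GC), Clec2d (0.37, 44.9% GC) and D10Wsu102e (0.75, 44.8% GC). The search was made after the data were seen.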
